A study of Homo sapiens with 6 samples.

Results

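APCDD1 and 9 core genes of the WNT/β-catenin pathway were followed through CDK7 inhibition in Ewing sarcoma cells. The genes were taken by symbol from the deposited expression table: APCDD1, DKK2, LRP6, AXIN1, AXIN2, CTNNB1, LEF1, TCF7, TCF7L1 and TCF7L2. All 10 were found among the 27420 listed genes, each in 1 row. RNA-seq was performed on A673 and SKNMC, established cell lines from Ewing sarcoma, a tumour driven by the fusion protein EWS-FLI1. Both lines were exposed during 6 h to THZ1, a covalent inhibitor of CDK7, at a low dose of 50 nM or a high dose of 200 nM, and the controls to the vehicle DMSO. Each of the 6 conditions is 1 library. The doses were picked by the study as a mild and a strong exposure, and APCDD1 is one of the genes that it assigned to a super-enhancer.

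WNT ligands bind a Frizzled receptor and the co-receptor LRP5 or LRP6 at the cell surface. Without a ligand, a complex built on the scaffold AXIN1 or AXIN2, with APC and GSK3, marks β-catenin (CTNNB1) for degradation. With a ligand, β-catenin accumulates and binds the DNA-binding factors LEF1, TCF7, TCF7L1 and TCF7L2, and targets such as AXIN2 are then activated. APCDD1 is a membrane glycoprotein that binds WNT and LRP proteins and is known as an inhibitor of the pathway. The study describes this effect as dependent on cell type and tissue, and proposes that APCDD1 might inhibit the pathway in Ewing sarcoma. DKK2 is a secreted ligand of LRP6.

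Expression is given as FPKM, fragment counts normalised for the length of the transcript and the yield of the library. Levels can thus be compared between genes of a library but not read as amounts per cell. Comparisons between libraries depend on the scaling. With 1 library per condition there is no replicate error within a line, and differences within a line have no test. A test across both lines is given below, in which the spread is the difference in response between the lines, moderated by that of other genes. Read depth is unknown from FPKM, and the listed values summed to between 451872 and 462997 per library. Changes are log2 fold changes with 1 FPKM added to both values, which understates the change of low genes. Genes above 1 FPKM with DMSO were taken as active in a line, 11077 in A673 and 11896 in SKNMC, and a gene was called lower or higher when it differed at least 2-fold on this scale. Rescaling the libraries to equal 75th percentiles over active genes moved the median change of all active genes up by between 0.22 and 0.48, and dividing by the ribosomal protein genes moved it by between -0.20 and -0.41. All 9 Ewing sarcoma markers of a short list, CD99, NKX2-2 and NR0B1 among them, were active in both lines. Epithelial and endothelial markers summed to under 1 FPKM in every library, but of the 3 endothelial markers PECAM1 was not listed. Of 4 blood cell markers, PTPRC alone was active, in SKNMC, at 10.2 FPKM with DMSO, 7.90 under the low dose and 13.1 under the high dose, while CD3E was listed at 0 in all libraries and CD14 stayed below 1 FPKM. The part of PTPRC in the results was not tested. In bulk RNA, fewer cells expressing a gene and less RNA per cell cannot be told apart.

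With DMSO, APCDD1 was the most abundant of the 10 transcripts in both lines. It was at 173 FPKM in A673 and 187 FPKM in SKNMC, above 96.2% and 97.3% of the active genes of these lines. Within a wider list of 96 WNT pathway genes it ranked 2 in A673 and 3 in SKNMC. CTNNB1 and DKK2 followed in both lines, at 44.9 and 28.4 FPKM in A673 and at 76.9 and 45.6 FPKM in SKNMC. AXIN1 and LRP6 lay close together, between 13.9 and 15.7 FPKM in the 2 lines. TCF7L1 and TCF7L2 were between 5.42 and 7.99 FPKM. TCF7 was at 1.11 FPKM in A673 and 2.77 in SKNMC, and AXIN2 at 0.778 and 1.51 FPKM. The gene that set the lines apart was LEF1, at 0.0499 FPKM in A673 and 12.0 FPKM in SKNMC. LEF1 was the 1 gene of 10 that differed at least 2-fold between the untreated lines (log2 difference -3.63, A673 against SKNMC), while 23.5% of the 12399 genes active in at least 1 line did so, 15.0% with the lower level in A673 and 8.42% with the higher. The other 9 differed by between -0.84 for TCF7 and 0.44 for TCF7L1 on the log2 scale. With 0.1 FPKM added in place of 1, TCF7 passed 2-fold too, at -1.25. LEF1 and AXIN2 were below 1 FPKM in A673, so 8 of the 10 genes were active there and all 10 in SKNMC.

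**Figure D1:**
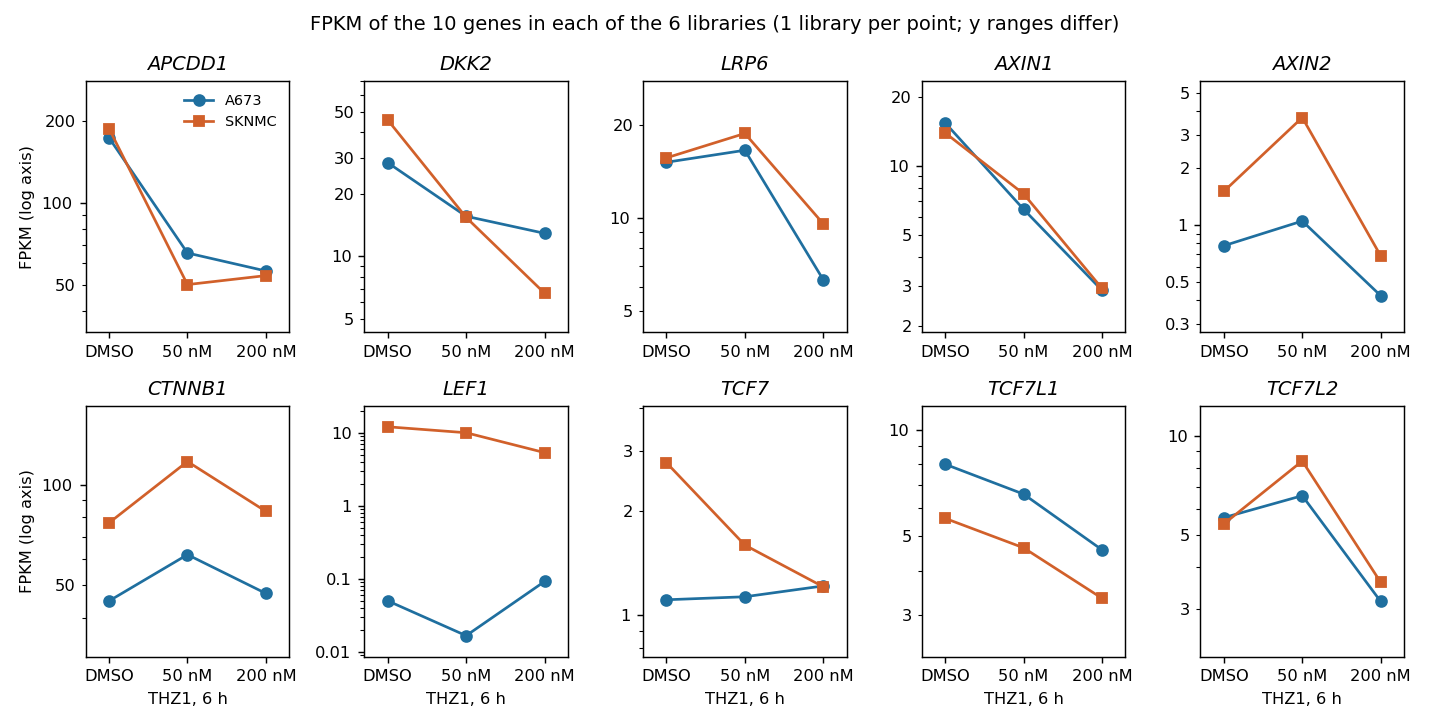
FPKM (log axis, with a range of its own in each panel) of the 10 genes with DMSO, 50 nM THZ1 and 200 nM THZ1, with A673 as circles and SKNMC as squares; every point is 1 library. APCDD1 dropped from 173 and 187 FPKM to between 50.0 and 65.4 at the low dose, CTNNB1 was at its highest at 50 nM in both lines, and LEF1 stayed below 0.1 FPKM in A673.

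Under THZ1 the 10 genes divided into different courses. At 50 nM, 2 of the 8 active genes in A673 were at least 2-fold lower, APCDD1 and AXIN1, against 15.9% of all active genes. In SKNMC these were 2 of 10, APCDD1 and DKK2, against 15.8%. At 200 nM, APCDD1, AXIN1, DKK2 and LRP6 were lower in A673, 4 of 8 against 25.3% of all active genes. In SKNMC, APCDD1, AXIN1, DKK2 and LEF1 were lower, 4 of 10 against 27.3%. None of the 10 was called at least 2-fold higher in any of the 4 comparisons. Of active genes, 0.343% and 0.126% had this call in A673 at the low and high dose, and 0.471% and 0.462% in SKNMC. AXIN2 in SKNMC went from 1.51 to 3.72 FPKM at 50 nM, a change of 0.91 on this scale. With 0.1 FPKM added in place of 1 the change was 1.25, and with the 75th percentile scaling 1.18, both past 2-fold. In A673 the active members had a median change of -0.12 under the low dose and -0.88 under the high dose, where that of all active genes was -0.27 and -0.40. In SKNMC it was -0.24 and -0.71, against -0.32 and -0.55. These shares rest on 8 or 10 genes, and nothing particular to the members is read from them. Both doses of a line share its DMSO library.

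A fit across both lines asked which of these changes were large against the difference in response between the lines. The fit used limma, with line as a block and Benjamini-Hochberg adjustment over the 11503 genes with a mean above 1 FPKM. At 50 nM it called 3 of the 10 genes lower at an adjusted p under 0.05, against 33.5% of all genes, and 1 higher, against 4.86%. APCDD1 (log2 fold change -1.64, SE 0.142, limma adjusted p = 3.72e-05), AXIN1 (-0.97, SE 0.171, 0.00129) and DKK2 (-1.16, SE 0.279, 0.00771) were lower, and CTNNB1 was higher (0.53, SE 0.126, 0.0074). At 200 nM 6 were lower, against 47.6%, and none higher, against 5.91%. AXIN1 (-2.01, SE 0.171), DKK2 (-1.84, SE 0.279), APCDD1 (-1.69, SE 0.142), LRP6 (-0.90, SE 0.172), TCF7L1 (-0.65, SE 0.168) and TCF7L2 (-0.58, SE 0.177) passed, with limma adjusted p between 8.62e-06 and 0.0176. From 50 to 200 nM 5 were lower, AXIN1, AXIN2, LRP6, TCF7L2 and CTNNB1, against 20.1%, and none higher, against 2.63%. With 2 residual degrees of freedom per gene against 8.51 from the prior, each SE was drawn mostly from other genes of like level. Each condition was grown once per line, so this fit says nothing of the spread between cultures. With the 75th percentile scaling APCDD1, AXIN1 and DKK2 alone remained lower at 200 nM, against 28.5% of all genes. CTNNB1 was called higher there, against 23.6%. Under this scaling TCF7L2 was also called higher at 50 nM, against 16.3%, and the call of CTNNB1 from 50 to 200 nM was lost. With the scaling on ribosomal protein genes the call of CTNNB1 at 50 nM was lost.

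Direction was the same in both lines for most of the 8 genes active in each. APCDD1, AXIN1, DKK2 and TCF7L1 were below DMSO at both doses in both lines, as were 52.9% of the 10574 genes active in both. CTNNB1 was above DMSO in all 4 comparisons, as were 10.0% of these genes. TCF7L2 and LRP6 were above DMSO at 50 nM and below at 200 nM in both lines, a course found for 6.93% of the genes. TCF7 was slightly above DMSO in A673 and below in SKNMC, a combination found for 4.39% of the genes, and moved below DMSO in A673 too when libraries were divided by the ribosomal protein genes. APCDD1 was the only member lower by at least 2-fold in all 4 comparisons, a result shared with 8.70% of the genes active in both lines.

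**Figure D2:**
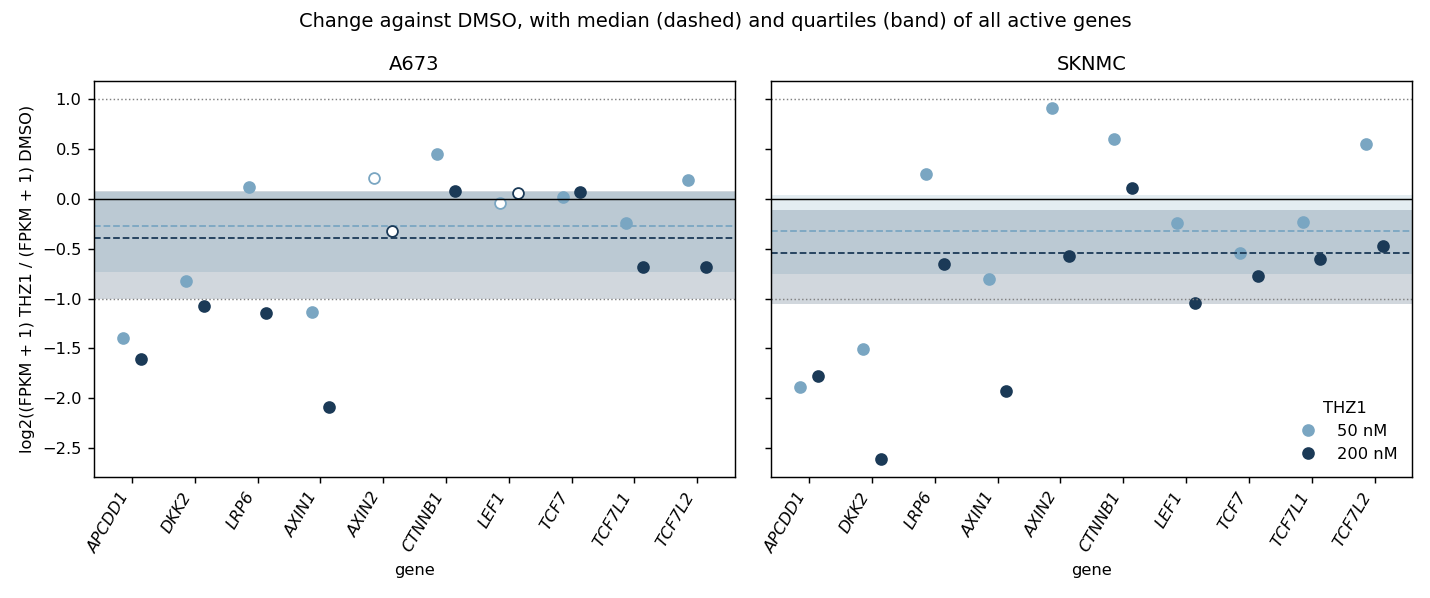
Log2 fold change of the 10 genes against the DMSO library of the line at 50 nM (light) and 200 nM THZ1 (dark), 1 library per condition; open points are genes below 1 FPKM with DMSO, dashed lines and bands are the median and quartiles of all active genes, and dotted lines mark a 2-fold change. APCDD1 lies between -1.39 and -1.88 in all 4 comparisons, and DKK2 in SKNMC at 200 nM is the lowest point at -2.61.

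The sequences before the start sites of APCDD1 and AXIN1, 2 of the 3 members at least 2-fold lower at 200 nM in both lines, and of CTNNB1, which was not, are shown as examples. Each is the 300 bases before the start of the canonical GENCODE release 44 transcript on GRCh37 (hg19), written 5′ to 3′ on the strand of the gene, with CG dinucleotides in capitals. APCDD1 is read from the plus strand of chr18:10454332-10454631, AXIN1 from the minus strand of chr16:402724-403023 and CTNNB1 from the plus strand of chr3:41240696-41240995.
APCDD1: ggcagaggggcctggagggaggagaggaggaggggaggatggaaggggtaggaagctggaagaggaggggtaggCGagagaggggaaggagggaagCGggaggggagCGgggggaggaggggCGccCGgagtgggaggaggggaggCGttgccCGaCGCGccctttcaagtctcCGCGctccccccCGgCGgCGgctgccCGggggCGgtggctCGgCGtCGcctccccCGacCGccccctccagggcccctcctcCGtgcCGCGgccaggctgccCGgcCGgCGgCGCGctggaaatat
AXIN1: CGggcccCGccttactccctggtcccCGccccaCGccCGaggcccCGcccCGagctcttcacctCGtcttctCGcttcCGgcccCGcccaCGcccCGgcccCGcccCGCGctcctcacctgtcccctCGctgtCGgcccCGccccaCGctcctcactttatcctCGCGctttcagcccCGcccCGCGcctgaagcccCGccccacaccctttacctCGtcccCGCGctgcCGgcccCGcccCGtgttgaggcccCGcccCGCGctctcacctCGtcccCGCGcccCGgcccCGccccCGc
CTNNB1: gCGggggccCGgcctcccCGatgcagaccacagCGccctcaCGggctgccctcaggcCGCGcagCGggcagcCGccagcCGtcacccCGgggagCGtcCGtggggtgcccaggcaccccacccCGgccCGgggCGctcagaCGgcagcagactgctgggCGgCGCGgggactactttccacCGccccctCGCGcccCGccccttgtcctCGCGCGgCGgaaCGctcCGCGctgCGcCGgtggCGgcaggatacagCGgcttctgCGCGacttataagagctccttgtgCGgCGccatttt
The APCDD1 window held 75.7% G or C and 29 CG dinucleotides, and the AXIN1 window 78.7% and 41. That of CTNNB1, which was not lower, held 75.3% and 39, and the medians over 25681 genes of the table were 58.7% and 16. The letters CTTTGAT or CTTTGAA, the core that TCF/LEF factors bind, were searched on both strands and were not found in the windows of APCDD1, AXIN1 and CTNNB1, while 6.78% of all windows held them. The letters GGAAGGAA, a GGAA repeat of the kind that EWS-FLI1 binds, were not found in them either, while 3.62% of all windows held them. This says only that the letters are not in these windows, since enhancers and introns were not searched.

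APCDD1, a modulator at the cell surface, lies on the plus strand of chromosome 18 (hg19, 10454624 to 10489945). The A673 libraries held 173 FPKM under DMSO, 65.4 under the low dose and 56.2 under the high dose. The SKNMC libraries held 187, 50.0 and 54.0 FPKM in the same order. The treated libraries of both lines were thus all far below both DMSO libraries, and most of the difference was already present at the low dose. At 50 nM 37.7% of the DMSO level was left in A673 and 26.7% in SKNMC, and at 200 nM 32.4% and 28.8%. The log2 fold changes were -1.39 and -1.61 in A673, and -1.88 and -1.78 in SKNMC. Of all active genes, 7.15% in A673 and 1.79% in SKNMC had a lower change at 50 nM, and 10.0% and 6.30% at 200 nM. The step from 50 to 200 nM was small, -0.22 in A673 and 0.11 in SKNMC, and the latter became -0.11 when libraries were divided by the ribosomal protein genes. APCDD1 kept its 2-fold call in all 4 comparisons under each of 3 scalings.

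The course of APCDD1 was compared with its neighbours on the chromosome and with transcription factors that the study profiled with it. The study reported less APCDD1 RNA and protein after MEIS1 or EWS-FLI1 was silenced, a link that was not tested here. NAPG, a vesicle fusion gene that starts 36.0 kb beyond APCDD1 on the same strand, was at 24.3, 29.2 and 18.0 FPKM in A673 in order of dose, and at 23.2, 24.7 and 19.4 in SKNMC. At 50 nM, where APCDD1 had dropped, the log2 fold changes of NAPG were small, 0.25 in A673 and 0.091 in SKNMC on the scale as deposited. Whether NAPG stays above DMSO under the other scalings was not tested, so no rise is read from these values. VAPA, the nearest active gene on the other side, at 495 kb, changed by 0.092 and 0.083 at 50 nM in A673 and SKNMC and was lower by -1.01 and -1.07 at 200 nM. MEIS1, a homeodomain factor, was at 9.72, 2.29 and 1.82 FPKM in A673 and at 54.7, 21.2 and 18.7 in SKNMC, so its untreated level differed between the lines far more than that of APCDD1. FLI1 was at 31.5, 15.0 and 4.26 FPKM in A673 and at 27.3, 15.2 and 4.56 in SKNMC, and unlike APCDD1 it was much lower at the high dose than at the low dose. How reads of the EWS-FLI1 fusion were divided between EWSR1 and FLI1 is not given in the sources used here.

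Genes with a course like that of APCDD1 were sought among 5985 others that exceeded 10 FPKM in both controls and were listed above 0 throughout, by the root mean square difference of log2(FPKM + 1) over the 6 libraries, each gene centred on its own mean. The 5 nearest were RNF214, FBXO38, ZC3HC1, NARFL and POLR3C, with differences between 0.0958 and 0.131. Their untreated levels were between 10.6 and 21.8 FPKM, far below that of APCDD1. RNF214, the nearest, was at 11.9, 3.81 and 3.14 FPKM in A673 and at 10.6, 2.77 and 2.68 in SKNMC. None of the 5 is on the WNT list, which holds 96 of the 27420 listed genes, so nothing is read from this.

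DKK2, on the minus strand of chromosome 4 (107842958 to 108204963), was the other surface modulator. The A673 control held 28.4 FPKM, the low-dose library 15.6 and the high-dose library 12.9. The corresponding SKNMC libraries held 45.6, 15.4 and 6.65 FPKM. The line with more DKK2 before treatment thus had less of it at 200 nM, where 45.6% of the DMSO level was left in A673 and 14.6% in SKNMC. The change in SKNMC at 200 nM, -2.61, lay above that of 0.664% of the active genes. In A673 the changes were -0.82 and -1.07, and the 2-fold call at 200 nM was lost, at -0.72, with the 75th percentile scaling. The ratio of APCDD1 to DKK2 within a library, which no scaling alters, was 6.11, 4.18 and 4.34 in A673 and 4.11, 3.24 and 8.12 in SKNMC.

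LRP6, the co-receptor, on the minus strand of chromosome 12 (12268958 to 12419946), was not lower at the low dose. Its levels in order of dose were 15.2, 16.6 and 6.32 FPKM in A673 and 15.7, 18.8 and 9.60 FPKM in SKNMC. The high-dose library was the lowest of each line, and the changes at 200 nM were -1.14 in A673 and -0.66 in SKNMC. They were -0.82 and -0.13 with the 75th percentile scaling, which ends the call in A673, and the change in SKNMC passed 2-fold, at -1.14, with that on ribosomal protein genes. The changes at 50 nM, 0.12 and 0.25, were above those of 79.4% and 88.2% of active genes but took the opposite sign, at -0.099 in both lines, when libraries were divided by the ribosomal protein genes. LRP6 was the 1 gene of 9 in A673 that was at least 2-fold lower at 200 nM than at 50 nM (-1.27), a step found for 7.97% of the genes active at 50 nM, while 0.134% were higher by as much and none of the 9.

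The 2 scaffolds of the destruction complex differed in course. AXIN1, the constitutive scaffold, on the minus strand of chromosome 16 (337439 to 402673), had levels of 15.4, 6.46 and 2.86 FPKM in A673 in order of dose. Those in SKNMC were 13.9, 7.54 and 2.91 FPKM. Each step of dose brought a lower level in both lines, and the levels of the lines lay close together at each dose. The log2 fold changes were -1.14 and -2.09 in A673 and -0.80 and -1.93 in SKNMC, and 3.83% and 4.21% of active genes had a lower change at 200 nM. The call at 50 nM in A673 was lost, at -0.91, with the 75th percentile scaling, and a call at 50 nM in SKNMC appeared, at -1.09, with that on ribosomal protein genes.

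AXIN2, a target of the pathway that feeds back on it, on the minus strand of chromosome 17 (63524680 to 63557765), was low throughout. The SKNMC control held 1.51 FPKM, the low-dose library 3.72 and the high-dose library 0.688. Its change of 0.91 at 50 nM was above that of 99.3% of the active genes of the line, and that at 200 nM was -0.57. In A673 it was at 0.778, 1.05 and 0.423 FPKM, so that in both lines the 50 nM library was the highest and the 200 nM library the lowest. With 0.1 FPKM added in place of 1, the changes in SKNMC were 1.25 and -1.03, both past 2-fold. With the 75th percentile scaling the change at 50 nM was 1.18. The fit across both lines did not call AXIN2 at 50 nM (0.56, SE 0.249, limma adjusted p = 0.102). With the scaling on ribosomal protein genes its estimate there was 0.32 (SE 0.224, limma adjusted p = 0.244). The ratio of AXIN1 to AXIN2 was 19.8, 6.15 and 6.76 in A673 and 9.22, 2.03 and 4.24 in SKNMC, lowest at 50 nM in both.

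CTNNB1, which encodes β-catenin, on the plus strand of chromosome 3 (41236327 to 41301587), was above its DMSO level in every treated library. In order of dose it had 44.9, 61.8 and 47.3 FPKM in A673, and 76.9, 117 and 83.2 FPKM in SKNMC. The 50 nM library was the highest in both lines, with changes of 0.45 and 0.60 that exceeded those of 96.4% and 97.8% of active genes. At 200 nM the changes were 0.073 and 0.11, and these turned to -0.27 and -0.47 when libraries were divided by the ribosomal protein genes, while those at 50 nM stayed above 0 under all 3 scalings. CTNNB1 overlaps ULK4 on the other strand, at 0.792 and 1.28 FPKM with DMSO, and the sources used here do not say if reads were assigned by strand.

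The 4 TCF/LEF factors, which carry β-catenin to DNA, made up a different mixture in the 2 lines. Summed, they reached 14.8, 14.3 and 9.05 FPKM in A673 in order of dose, and 25.8, 24.6 and 13.5 FPKM in SKNMC. TCF7L1 (chromosome 2) and TCF7L2 (chromosome 10) held 54.0% and 38.2% of the sum in untreated A673, and LEF1 0.337%. In untreated SKNMC LEF1 held 46.5%, TCF7L1 21.8%, TCF7L2 21.0% and TCF7 10.7%. The untreated sums of the lines differed by less than the LEF1 level of SKNMC. At 200 nM LEF1 still held 39.5% of the sum in SKNMC and 1.01% in A673.

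**Figure D3:**
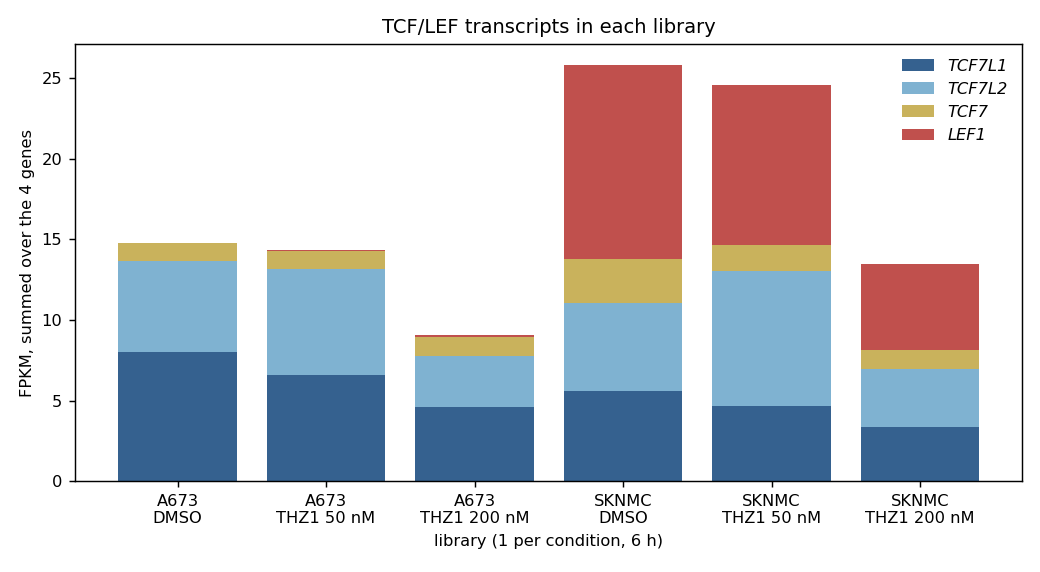
FPKM of TCF7L1, TCF7L2, TCF7 and LEF1, stacked, in each of the 6 libraries, 1 library per bar. LEF1 is all but missing from the A673 bars and holds between 39.5% and 46.5% of the SKNMC bars, and the bar at 200 nM is the shortest of each line.

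LEF1, on the minus strand of chromosome 4 (108968700 to 109090112), had 12.0, 9.96 and 5.33 FPKM in SKNMC in order of dose. The change at 200 nM was -1.04, just past 2-fold, and became -0.55 with the 75th percentile scaling. In A673 it was at 0.0499, 0.0166 and 0.0918 FPKM, and no change was read from these levels. TCF7L1 was at 7.99, 6.58 and 4.58 FPKM in A673 and at 5.62, 4.65 and 3.35 in SKNMC. This was an even course in both lines, with changes of -0.69 and -0.61 at 200 nM below which lay the changes of 36.6% and 46.6% of active genes. At 50 nM the change in SKNMC, -0.23, turned to 0.01 with the 75th percentile scaling. TCF7L2, best known from the intestinal epithelium, was at 5.66, 6.60 and 3.16 FPKM in A673 and at 5.42, 8.40 and 3.61 in SKNMC. Its 50 nM library was the highest of each line, with changes of 0.19 and 0.55, of which that in A673 turned to -0.012 with the scaling on ribosomal protein genes. The ratio of TCF7L1 to TCF7L2 was 1.41, 0.998 and 1.45 in A673 and 1.04, 0.553 and 0.928 in SKNMC, so it was lowest at 50 nM in both lines.

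TCF7, on the plus strand of chromosome 5 (133450401 to 133487556), took different directions in the lines on the scale as deposited. The A673 levels in order of dose were 1.11, 1.13 and 1.21 FPKM. The SKNMC levels were 2.77, 1.60 and 1.21 FPKM. The lines differed before treatment and were at nearly the same level at 200 nM. TCF7 overlaps SKP1 on the other strand, at 373 FPKM in A673 and 297 in SKNMC with DMSO. Without strand in the counting, reads from the shared stretch could be assigned to either gene, and the extent of this stretch was not measured.

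Between the doses, 4 of the 10 genes in SKNMC were at least 2-fold lower at 200 nM than at 50 nM: AXIN2 (-1.48), AXIN1 (-1.13), DKK2 (-1.10) and TCF7L2 (-1.03). This step was found for 9.09% of the genes active at 50 nM in that line, and 0.362% were higher by as much, none of the 10 among them. AXIN2 alone kept the call with the 75th percentile scaling. APCDD1, in contrast, had 107.9% of its 50 nM level at 200 nM in SKNMC and 85.9% in A673.

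The wider list of 96 WNT pathway genes, all found in the table, held 63 genes active in at least 1 line, 50 in A673 and 60 in SKNMC. At 50 nM, 8 of 50 were at least 2-fold lower in A673 (16.0%) and 9 of 60 in SKNMC (15.0%), close to the 15.9% and 15.8% of all active genes. At 200 nM they were 20 of 50 (40.0%) and 24 of 60 (40.0%), against 25.3% and 27.3%. With the 75th percentile scaling they were 13 of 50 (26.0%) and 13 of 60 (21.7%), against 17.3% and 14.0% of all active genes. With the libraries as deposited and 1 FPKM added, none was at least 2-fold higher. The median change of the list was -0.38 and -0.81 in A673 and -0.35 and -0.78 in SKNMC, where all active genes had -0.27, -0.40, -0.32 and -0.55. The list holds the 10 members. Without them, 16 of 42 genes in A673 (38.1%) and 20 of 50 in SKNMC (40.0%) were lower at 200 nM.

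Among the secreted and membrane inhibitors, 4 of 6 active genes were lower at 200 nM in A673 and 5 of 9 in SKNMC, APCDD1 and DKK2 among them, where all active genes had 25.3% and 27.3%. DKK1, a secreted antagonist that binds LRP6, had 23.2, 1.95 and 1.66 FPKM in A673 in order of dose, and 18.2, 3.41 and 1.16 FPKM in SKNMC. Its changes, between -2.12 and -3.19, lay below those of APCDD1 and DKK2 in all 4 comparisons. Of the receptors and co-receptors, 7 of 12 were lower at 200 nM in A673 (58.3%) and 4 of 14 in SKNMC (28.6%), the latter near the 27.3% of all active genes. FZD1, a Frizzled receptor, was at 99.6, 34.3 and 19.4 FPKM in A673 and at 59.7, 28.8 and 16.2 in SKNMC. FZD8 was at 18.6, 4.76 and 3.90 FPKM in A673 and at 20.7, 4.56 and 2.60 in SKNMC. Both were at least 2-fold lower in all 4 comparisons, FZD1 at 50 nM in SKNMC only just (-1.02). FZD2 passed at both doses in A673 alone, with -1.24 and -1.97 against -0.69 and -1.14 in SKNMC, a difference that was not tested.

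Of 19 WNT ligands, 1 was active in A673 and 4 in SKNMC. WNT5A, a ligand best known for signalling without β-catenin, was at 4.13, 1.84 and 1.59 FPKM in A673 and at 8.29, 2.80 and 1.76 in SKNMC, with changes of -1.29 and -1.75 in the latter. WNT11 was at 1.96 FPKM in SKNMC with DMSO and at 0.229 and 0.374 with THZ1. In the destruction complex, 3 of 8 active genes were lower at 200 nM in A673 (37.5%) and 3 of 10 in SKNMC (30.0%), against 25.3% and 27.3%, with AXIN1 in both and the lowest change in each. Of β-catenin, the TCF/LEF factors and their nuclear cofactors, 4 of 11 in A673 (36.4%) and 6 of 12 in SKNMC (50.0%) were lower at 200 nM. At 50 nM none was, where all active genes had 15.9% and 15.8%, and 1 of 8 and 0 of 10 were in the destruction complex, so that with so few genes a count of 0 sets neither role apart. Of the other target genes, NKD2, an inhibitor of Dishevelled, was lower at both doses in both lines, at 8.09, 3.22 and 2.96 FPKM in A673 and at 17.8, 4.79 and 5.17 in SKNMC. Its level at the 2 doses was nearly the same, as was that of APCDD1.

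**Figure D4:**
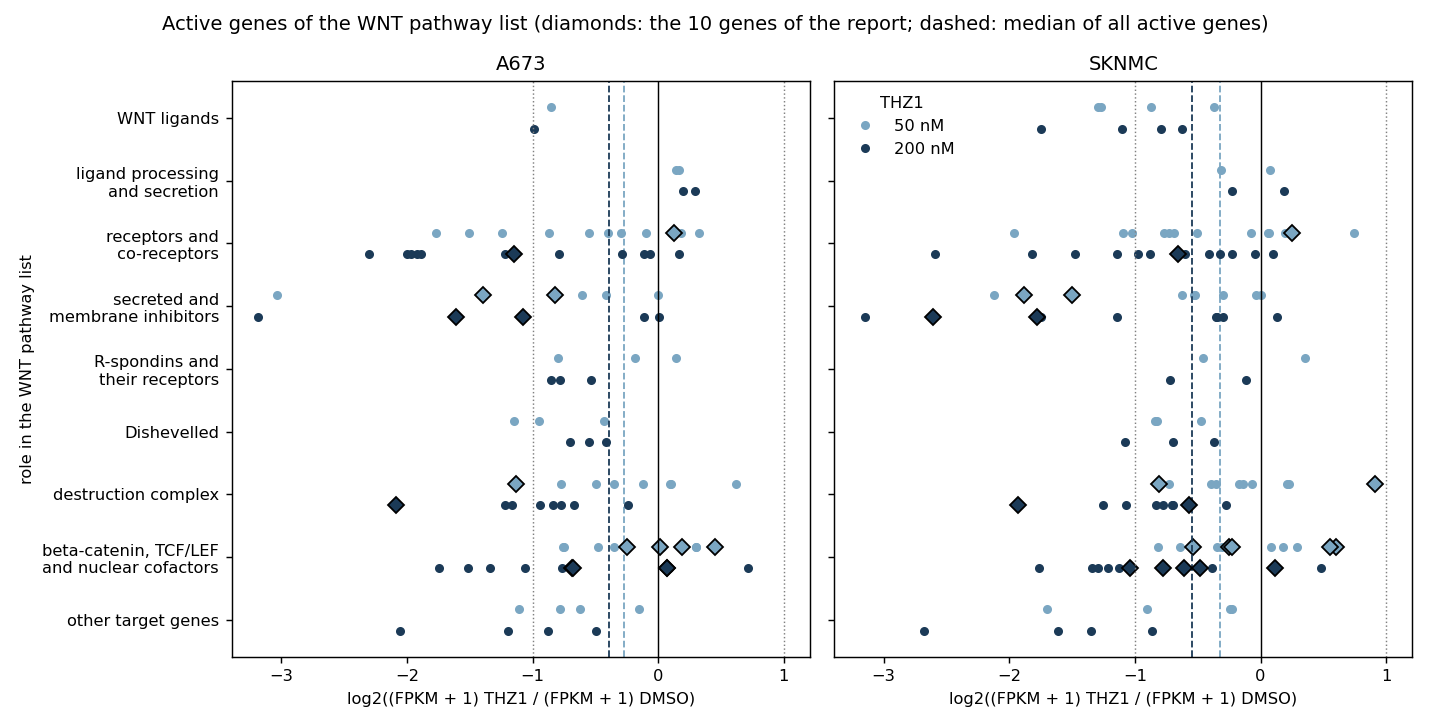
Log2 fold change against DMSO of the active genes of the WNT pathway list, by role, at 50 nM (light) and 200 nM THZ1 (dark), 1 library per condition; diamonds are the 10 genes described here, dotted lines mark a 2-fold change and dashed lines the median of all active genes. The β-catenin and TCF/LEF group lies right of the 2-fold line at 50 nM in both lines, and DKK1 is the lowest point among the inhibitors, at -3.19 in A673 and -3.15 in SKNMC at 200 nM.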

How the data were processed

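TruSeq libraries were read as 100-bp pairs (HiSeq2000). Reads were placed on hg19 by STAR with the Ensembl 75 annotation, and the authors deposited FPKM values, made with StringTie per their methods, while the submitters' processing notes list STAR and Cufflinks. The table lists 20311 protein-coding and 7109 lincRNA genes. Although it is titled as holding averages, GEO's labels describe a single library for each condition, and each column was treated as 1 library. Its 4 columns of the authors' log2 fold changes were not used. FPKM keeps no read counts, and depth is unknown.

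Log2 fold changes were computed from the FPKM with a pseudocount of 1 (Python 3.11.15, pandas 2.3.3), and checked on simulated data. Genes above 1 FPKM with DMSO were active, and for the step between doses those above 1 FPKM at 50 nM. The call was a 2-fold change. Within a line, 1 library per condition allows no test. Across lines, limma 3.58.1 (R 4.3.3, trended prior) was fitted to log2(FPKM + 1) with dose and, as a block, the line, an analysis chosen after seeing the data. The pairing is by cell line. Sequences came from GRCh37 and GENCODE release 44, and the upstream windows of the other members are not reported here. All 10 members are named. Genes of the wider list are named if they passed 2-fold at both doses in a line. The members, the lists and the rules were chosen with earlier results of these data known. Alternatives were a pseudocount of 0.1, no filter, a 1.5-fold threshold and 3 scalings, to a common sum, the 75th percentile of active genes and the median of 84 ribosomal protein genes.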

Additional observations from a re-analysis of the deposited data

Results flagged for a closer look

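TCF7 moved in opposite directions in the 2 lines at both doses. In A673 its log2 fold changes were 0.015 under the low dose and 0.072 under the high dose, and in SKNMC -0.54 and -0.77. With single libraries this difference was not tested, and 4.39% of the genes active in both lines had this pattern. The A673 values are near 0, and with libraries divided by the ribosomal protein genes they became -0.10 and -0.11, below DMSO as in SKNMC. TCF7 was at 1.11 FPKM in A673 with DMSO, and it overlaps the far more abundant SKP1 on the other strand; the part of these reads was not tested.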

How the results depend on the processing

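The fit across lines used the line as a replicate block and called 3, 6 and 5 members lower at 50 nM, at 200 nM and from 50 to 200 nM. Of all genes it called 33.5%, 47.6% and 20.1% lower. Without this block limma called 0, 2 and 0, against 0.00%, 7.02% and 0.00% of all genes, and APCDD1 and AXIN1 were the 2. At an unadjusted p under 0.05 there were 3, 4 and 3 members, where 1745, 2869 and 1071 of the 11503 genes were lower. With the block and the 75th percentile scaling 3 were lower at 200 nM, against 28.5% of all genes. With the block and the ribosomal protein genes 8 were, against 70.1%. The counts of members at least 2-fold lower stayed within 1.5 times of those above in most settings. With the 75th percentile scaling A673 had 1 under the low dose and 2 under the high dose, and SKNMC had 1 for the step between doses. For the WNT list this scaling gave 5 genes (10.0%) in A673 at 50 nM, slightly below the share of all active genes. At 200 nM in A673 it gave 13 (26.0%), against 17.3% of all active genes. At 200 nM in SKNMC it gave 13 (21.7%), against 14.0%. With the ribosomal protein genes the list had 17 genes lower at 50 nM in SKNMC (28.3%), against 23.4% of all active genes. The step between doses in A673 then held 2 members. With a pseudocount of 0.1 this step held 4 members, and 2 members were at least 2-fold apart between the untreated lines. With a 1.5-fold threshold 7 members were lower in SKNMC at 200 nM, 3 at the step in A673 and 4 apart between the lines, and the list had 19 and 33 genes lower in A673 and 21 and 40 in SKNMC. Under the alternatives the matching share of all active genes was computed only for the 3 scalings against DMSO. Nothing is read from the counts that lack it. Of 65 changes of single members, 7 lost the 2-fold call and 1 gained it with the 75th percentile, 5 gained it with the ribosomal protein genes and 7 with the pseudocount of 0.1, while all 65 kept their side with the common sum and without the filter. No called change took the opposite sign. The missing depth leaves counting error of low genes such as AXIN2, TCF7 and LEF1 in A673 unknown.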
